A study of Drosophila melanogaster with 48 samples.

Results

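The 6 lysosomal alpha-mannosidase genes of Drosophila melanogaster, LManI to LManVI, were followed over 48 Affymetrix arrays of whole-body RNA from adult flies. Every probe set annotated to 1 of these genes by its current symbol or gene ID was taken, which gave 6 probe sets, 1 per gene, of 18769 probe sets other than array controls. The genes were chosen by their measured difference between tomato and standard medium, the signal of LManIII above all, so that contrast is described for them and not tested. Larvae of 8 numbered lines had grown on cornmeal-molasses medium enriched with tomato paste, on the same medium with 9% ethanol, or on the standard medium alone. All flies lived on standard medium after eclosion. Each of the 24 combinations of line and medium has 2 arrays, and each medium has 16. The labels do not say what the line numbers 158, 304, 362, 379, 380, 774, 786 and 859 stand for, and give no sex; for 4 arrays they state adults of 3 to 5 days. Nothing in them separates the 2 arrays of a line and medium into different cultures. P-values for lines and for the line by medium interaction thus measure only the spread between these arrays, which may be technical. In the main fits, p-values for media and for title style measure how far a difference varied from line to line.

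Lysosomal alpha-mannosidases are acid hydrolases that remove alpha-linked mannose from the sugar chains of glycoproteins as these are broken down in the lysosome. Loss of the human enzyme causes alpha-mannosidosis, a storage disease in which mannose-rich oligosaccharides build up. Other alpha-mannosidases, in the Golgi and the endoplasmic reticulum, trim N-linked sugar chains while glycoproteins are being made. The 6 fly genes all lie on chromosome arm 2L, in 2 groups without another gene between the members in the RefSeq gene table. LManI (CG5322) and LManII (CG6206) form one group. LManIII (CG9463), LManIV (CG9465), LManV (CG9466) and LManVI (CG9468) form the other. The genes are paralogs, and whether a probe set also binds transcripts of its neighbours could not be examined here, so the 4 adjacent genes may share signal.

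The array titles are spelled in 2 ways, and this touches every result. Before the number of the array, a hyphen stands in the titles of 11 of 16 tomato arrays, 4 of 16 ethanol arrays and 0 of 16 standard arrays, and a space in the others. In 5 lines (158, 362, 379, 786 and 859) the 2 tomato arrays carry 1 title of each kind, and these 5 pairs allow the title style to be compared within 1 medium. What the spelling stands for is not given in the labels. All 11 hyphen-titled tomato arrays are numbered 3 or 4 and all 5 space-titled ones 1 or 2, so title style and array number cannot be told apart there. Of the 48 arrays, 21 correlated best with an array of the same line on another medium, 24 with their own partner and 3 with an array of another line. Those 3 were ethanol array 2 of line 158, tomato array 3 of line 362 and tomato array 1 of line 379. The correlation between partners ran from 0.783 to 0.991, with a median of 0.959. In RNA of whole flies, fewer cells of a type and less RNA per cell cannot be told apart.

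Markers of follicle cells, which lay down the eggshell, differed between the title styles and also varied on ethanol medium. Within the 5 tomato pairs all 15 measured eggshell genes were lower on the hyphen-titled array, with a median difference of −3.67 log2 units, and 13 of them passed the test. Their summed signal ran from 358 to 105005 on hyphen-titled tomato arrays, from 80929 to 177704 on space-titled tomato arrays and from 79246 to 168759 on standard arrays. On ethanol medium it ran from 95262 to 126671 on hyphen-titled and from 2056 to 139262 on space-titled arrays, so low sums were not limited to hyphen titles. The median eggshell difference of ethanol over standard medium was −1.36. Markers of the midgut, the digestive proteases and glycosidases, were higher in 27 of 34, of which 17 passed and 0 passed in the lower direction. Their summed signal was 153485 to 202267 on hyphen-titled tomato arrays and 107631 to 159248 on space-titled ones. Of 22 genes of male accessory gland and testis, 2 passed as higher and 6 as lower. In these pairs 17.9% of all tested probe sets passed as higher and 25.2% as lower, so the male counts alone are no result about these genes. Fewer genes were tested for fat body and yolk (4), neurons (3) and muscle (3), of which 0, 1 and 0 passed as higher and 0 as lower. No eggshell, midgut or male marker was at the floor of the scale on any array. The part of these cell types in the results for the alpha-mannosidases was not tested.

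Of the 6 genes, 5 had a mean log2 signal in the upper 60% of probe sets and entered the tests. LManIV did not. Its signal ran from 13.5 to 156 over the 48 arrays, with a median of 48.3, below the limit of 59.7 in geometric mean signal, and its values are given as a description unless a fit without the filter is named. This leaves the adjacent group with LManIII, LManV and LManVI in the tests.

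LManIII was the most variable of the 6 genes over the arrays. Its signal on tomato medium had a lowest value of 79.4, a median of 1287 and a highest of 4091. On ethanol medium the same 3 values were 88.0, 514 and 1409, and on standard medium they were 81.6, 286 and 1741. The ranges of all 3 media overlapped, and the 79.4 of a tomato array of line 158 was the lowest value of all 48. LManV reached 7747 on tomato medium with a median of 4414, against a median of 2576 on ethanol medium and 1971 on standard medium. LManVI had medians of 3119 on tomato, 2338 on ethanol and 1936 on standard medium. LManI had medians of 768 on tomato, 594 on ethanol and 569 on standard medium, and LManII of 3650, 3739 and 3761 in that order.

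**Figure D1:**
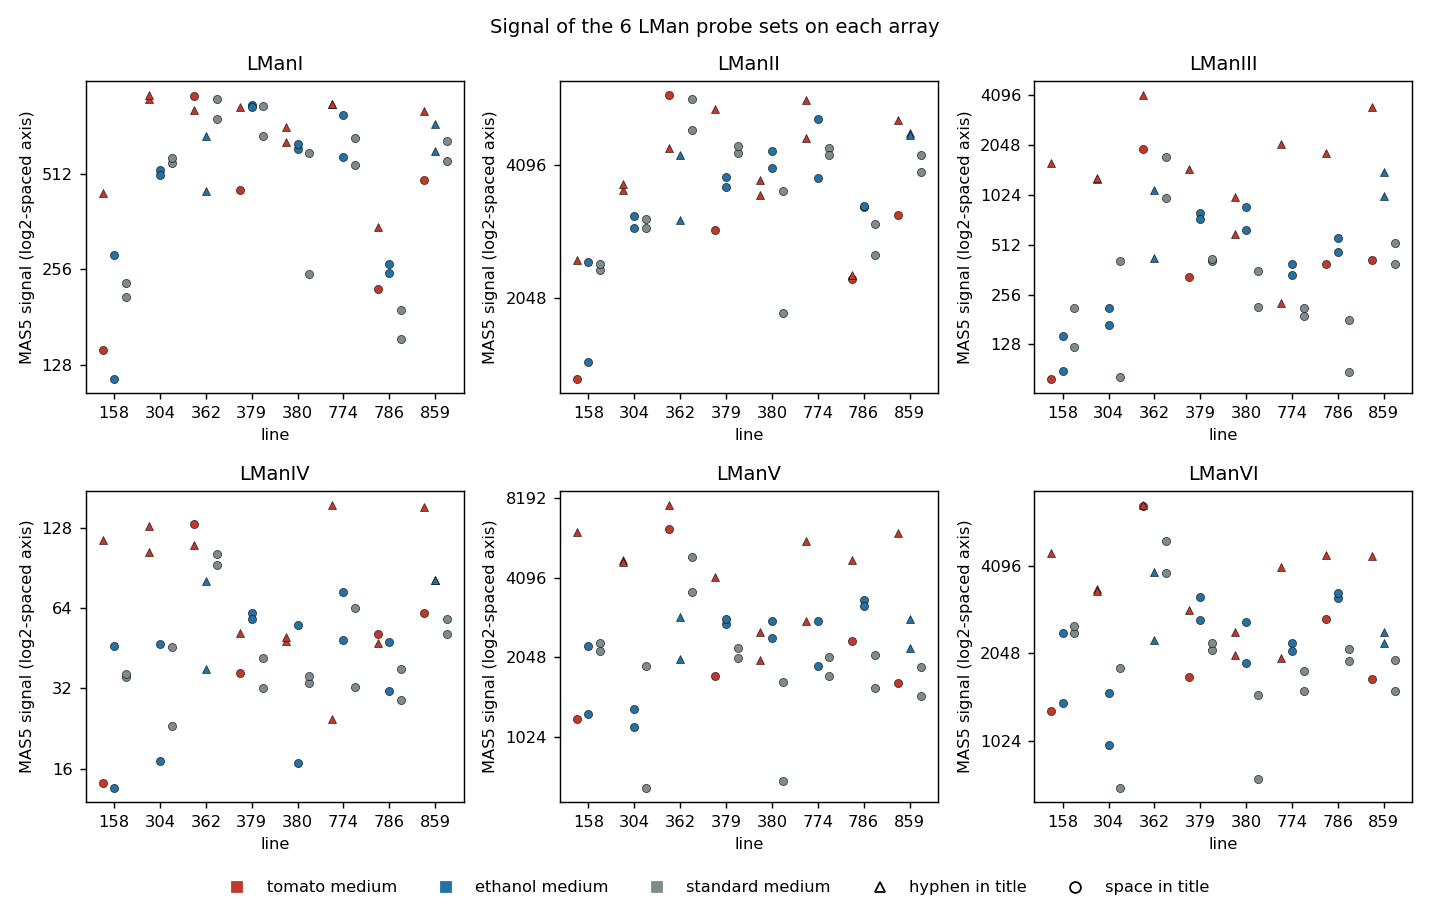
MAS5 signal (log2-spaced axis, in array units) of the 6 genes on each of the 48 arrays, by line, with tomato arrays left, ethanol arrays in the middle and standard arrays right; triangles mark titles with a hyphen and circles titles with a space. LManI lies lower in lines 158 and 786 than in most others, and LManIII is highest on a hyphen-titled tomato array of line 362, at 4091.

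In the contrast that led to the choice of the genes, tomato over standard medium, the adjacent group showed the larger differences. LManIII was 1.65 log2 units higher on tomato medium (SE 0.31, 3.14-fold), and the line means were higher in 8 of 8 lines, by 0.74 in line 379 to 2.82 in line 304. LManV was higher by 0.92 (SE 0.22) in 8 of 8 lines, and LManVI by 0.68 (SE 0.18) in 7 of 8. LManI was higher by 0.34 (SE 0.14) in 7 of 8 lines. LManII differed by 0.01 (SE 0.11) and was higher in 3 of 8 lines. LManIV, in the fit without the filter, was higher by 0.62 (SE 0.22). The median of the 5 genes past the filter was 0.68, against −0.01 for all 11261 probe sets tested, of which 1.15% passed an adjusted p of 0.05; nothing is read from this for the members.

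The same description changed with the title style. On the 11 hyphen-titled tomato arrays, LManIII exceeded both standard arrays of its own line 11 times, and so did LManV and LManVI. On the 5 space-titled tomato arrays, each of these 3 genes exceeded both standard arrays in 2 and lay below both in 2. With space-titled arrays alone, 5 on tomato and 16 on standard medium, the tomato difference was 0.14 for LManIII (95% interval −0.55 to 0.82), −0.02 for LManV (−0.50 to 0.47) and −0.03 for LManVI (−0.47 to 0.41). LManI then stood at −0.22 and LManII at −0.35 (−0.64 to −0.05). Because no standard array has a hyphen, title style and tomato medium cannot be fully told apart in the contrast over all arrays.

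**Figure D2:**
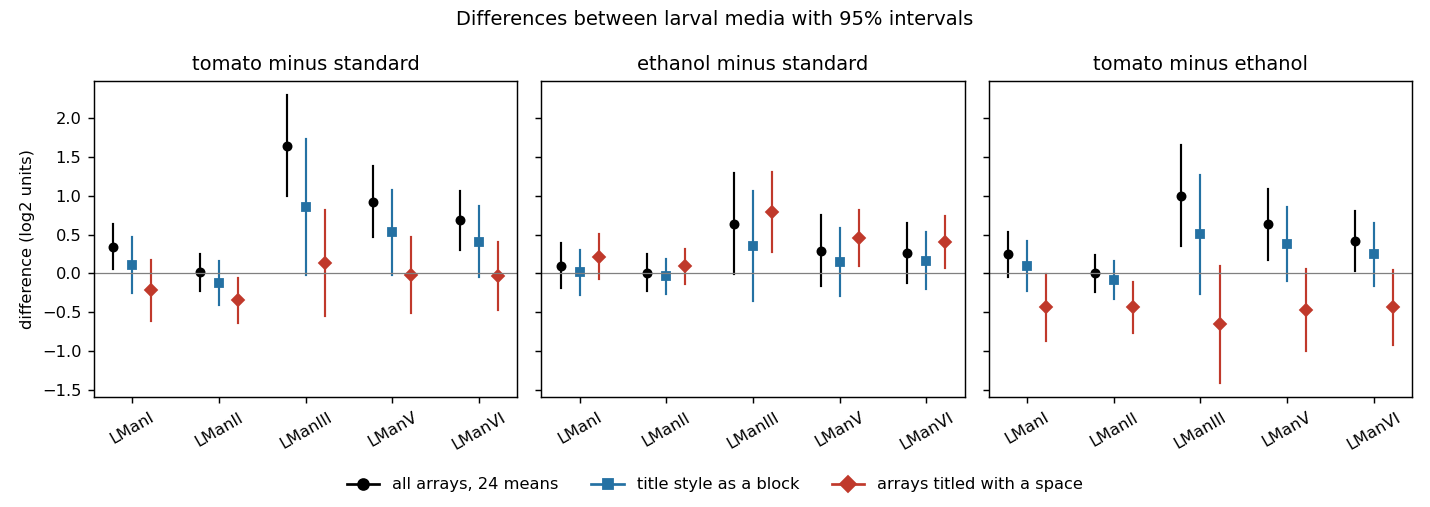
Differences between larval media (log2 units, first-named minus second) for the 5 genes past the filter, with 95% intervals, over all arrays (black circles, 24 combination means), with title style as a block (blue squares) and in space-titled arrays alone (red diamonds). The blue and red intervals come from single arrays. The LManIII difference between tomato and standard medium is 1.65 over all arrays and 0.14 in space-titled arrays.

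Ethanol medium against standard medium was not used to choose the genes, though it shares the standard arrays. No member passed the test in it, and 0% of probe sets did, with 628 under an unadjusted p of 0.05. LManIII had the largest difference of the 5, 0.64 log2 units (SE 0.31, 95% interval −0.00 to 1.29, higher in 6 of 8 lines, adjusted p = 0.84). LManV differed by 0.29 and LManVI by 0.27, each higher in 6 of 8 lines. LManI differed by 0.10 (interval −0.19 to 0.39) and LManII by 0.01 (interval −0.23 to 0.25). In space-titled arrays, 12 on ethanol and 16 on standard medium, the 3 genes of the adjacent group stood at 0.79 (SE 0.25), 0.46 (SE 0.18) and 0.41 (SE 0.16) in the order LManIII, LManV and LManVI. The adjusted p values were then 0.11, 0.17 and 0.17, and 0.355% of probe sets passed. The space-titled fit took single arrays and not combination means. Its SE and p-values thus count the 2 arrays of a line and medium as separate samples, and are not of the same kind as the main ones. On the 4 hyphen-titled ethanol arrays, of lines 362 and 859, each of these 3 genes exceeded both standard arrays of its own line in 2. LManIII and LManVI lay below both in 1, and LManV in 2. The arrays above both standard arrays were those of line 859, and none was of line 362. These 2 lines have no space-titled ethanol array, so title style could not be compared within ethanol medium.

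Tomato medium against ethanol medium shares the tomato arrays with the contrast behind the choice. No member passed, beside 0.107% of probe sets. LManIII was 1.01 log2 units higher on tomato medium (SE 0.31, 95% interval 0.36 to 1.65, higher in 7 of 8 lines), with an adjusted p of 0.32. LManV was higher by 0.63 (SE 0.22, adjusted p = 0.44) and LManVI by 0.42 (SE 0.18, adjusted p = 0.67). In space-titled arrays, 5 on tomato and 12 on ethanol medium, all 5 differences were negative. They ran from −0.66 for LManIII to −0.44 for LManI, LManII and LManVI, with no member and 0.142% of probe sets passing. Only lines 158, 379 and 786 have space-titled arrays on both media, with 1 on tomato medium each. Of these arrays, tomato array 1 of line 379 and ethanol array 2 of line 158 correlated best with another line. Without the 3 arrays that correlated best with another line, the tomato minus ethanol difference was 1.12 for LManIII, 0.74 for LManV and 0.52 for LManVI, with 0 members called.

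The line by medium interaction asks whether the response to the media varied between lines. None of the 5 genes passed its F-test (adjusted p between 0.53 and 0.76), nor did any probe set, a share of 0%. With title style as a block, LManIII (adjusted p = 0.049) and LManV (adjusted p = 0.036) passed, beside 16.3% of probe sets. The tomato minus ethanol difference of LManIII ran from −0.14 in line 379 to 2.77 in line 304, and that of LManV from −0.21 in line 380 to 1.97 in line 304. Lines 304, 380 and 774 have a hyphen in the titles of both tomato arrays.

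Within the 5 tomato pairs, where line and medium were the same, the hyphen-titled array carried more signal of LManIII, LManV and LManVI in every pair. LManIII had 1585 on the hyphen-titled and 79.4 on the space-titled array of line 158, and 4091 and 1934 in line 362. It had 1465 and 327 in line 379, 1821 and 393 in line 786, and 3483 and 414 in line 859. The hyphen-titled array was the higher of its pair in all 5 lines, and the space-titled array of line 362 exceeded the hyphen-titled arrays of lines 158, 379 and 786. The mean log2 signal was 11.15 ± 0.68 on hyphen-titled and 8.58 ± 1.63 on space-titled arrays (SD, n = 5 each). That is a difference of 2.57 log2 units (SE 0.38, 5.93-fold), and it passed the limma test within pairs at an adjusted p of 0.0040. The arrays of these pairs belong to the contrast that led to the choice of the genes, where 11 of 16 tomato arrays are hyphen-titled. The p-values from the pairs are therefore not independent of that choice.

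LManV followed with smaller differences. It had 6113 and 1198 in line 158, 7747 and 6284 in line 362, 4127 and 1738 in line 379, 4784 and 2355 in line 786, and 6029 and 1639 in line 859, hyphen-titled array first. The mean difference was 1.36 (SE 0.26, adjusted p = 0.0061, higher in 5 of 5 pairs). LManVI was higher by 0.95 (SE 0.23, adjusted p = 0.013, 5 of 5 pairs). Its 2 arrays in line 362 were nearly equal, at 6682 and 6596, and its widest gap was in line 158, at 4560 and 1296. In all 5 pairs the difference was larger for LManIII than for LManV and larger for LManV than for LManVI.

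The other group moved less. LManI was higher by 0.75 (SE 0.23, adjusted p = 0.028) in 4 of 5 pairs, from 448 and 142 in line 158 to 819 and 905 in line 362. Its call was lost when line 158 (difference 0.53, adjusted p = 0.072), line 379 (0.72, 0.067) or line 859 (0.76, 0.066) was left out. LManII differed by 0.43 (SE 0.20, adjusted p = 0.10) in 4 of 5 pairs, with the opposite sign in line 362, at 4470 and 5865. It passed when line 362 was left out, at 0.63 and an adjusted p of 0.021. LManIV, in the fit without the filter, differed by 0.89 (SE 0.46, adjusted p = 0.21, higher in 3 of 5 pairs). In all, 4 of 5 genes passed as higher, where 17.9% of all probe sets passed as higher and 43.1% in either direction. This count also comes from arrays behind the choice of the genes. The eggshell and midgut markers described above moved within the same pairs. Without the 2 arrays of these pairs that correlated best with another line, 3 pairs remained, and the differences were 3.20 for LManIII, 1.75 for LManV, 1.32 for LManVI and 1.01 for LManI, each still called.

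**Figure D3:**
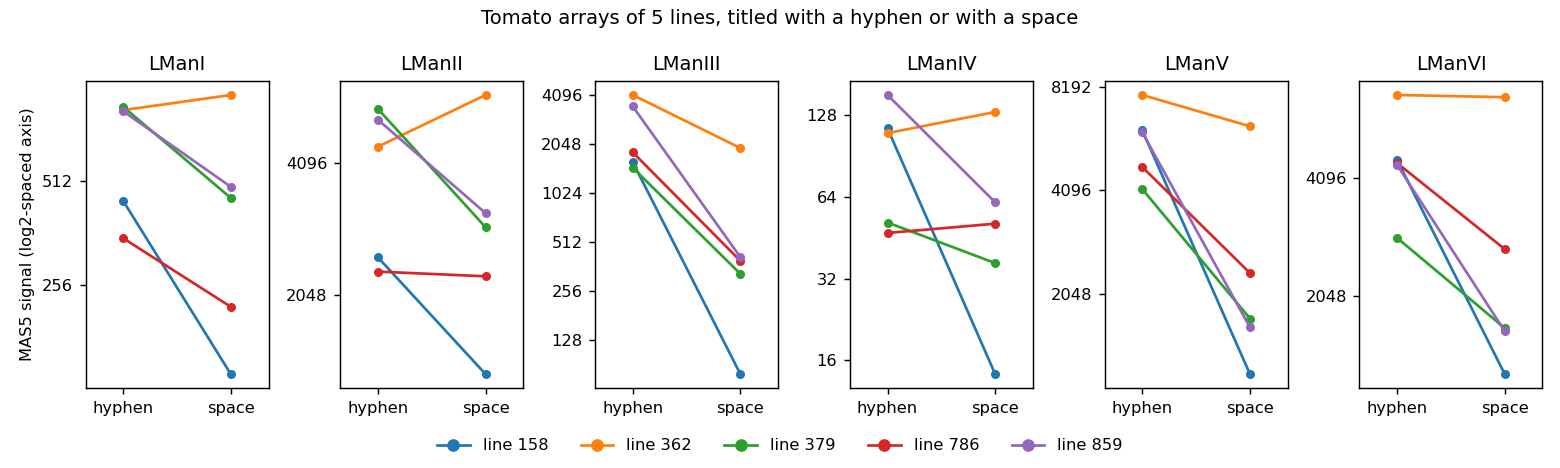
Signal (log2-spaced axis, in array units) on the hyphen-titled (left) and the space-titled (right) tomato array of 5 lines; each line of the plot joins the 2 arrays of 1 fly line. LManIII, LManV and LManVI slope down to the space-titled array in all 5 lines, and LManI and LManII slope up in line 362.

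Differences between lines, averaged over the media, were measured against the spread between the 2 arrays of a combination. LManI, LManII, LManIII and LManVI passed the F-test, 4 of 5 genes, where 61.8% of all probe sets passed, so the count alone is no result about these genes. LManI had the largest F, 19.21 (adjusted p = 7.9e-08), followed by LManII at 12.30 (4.7e-06), LManVI at 4.99 (0.0030) and LManIII at 4.13 (0.0081). LManV did not pass (F 2.35, adjusted p = 0.074). It passed without tomato array 2 (F 3.17) or 3 (F 3.86) of line 158, standard array 1 of line 304 (F 3.02), standard array 2 of line 380 (F 2.77), or tomato array 1 (F 2.89) or 4 (F 3.04) of line 859. LManV also passed with median centring, title style as a block, space-titled arrays or a replicate block, at F from 3.30 to 6.85. Beside it 6561, 9362, 7958 and 8806 probe sets passed in that order, against 6954 in the main fit. In the other 6 settings LManV did not pass (F 2.04 to 2.43). Line means of LManIII spanned 7.29-fold and those of the other 5 genes 2.24-fold to 3.40-fold.

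LManI split the lines most plainly. Its signal in line 158 had a lowest value of 115, a median of 220 and a highest of 448, and in line 786 the 3 values were 154, 236 and 350. In the other 6 lines the medians lay between 565 in line 304 and 835 in line 379. The lowest arrays of those 6 lines, 247 in line 380, 453 in line 362 and 457 in line 379, reached into the range of line 158 or just above it. The mean of line 158 minus that of the other 7 lines was −1.40 log2 units (SE 0.18, adjusted p = 1.6e-06), and 7.29% of probe sets passed as lower in that line. For line 786 the difference was −1.29 (adjusted p = 5.4e-06), beside 7.04% of probe sets. In the order of line means, only the step between line 786 and line 380, of 1.25, exceeded the larger SD of the 2 neighbours. Neighbours among the upper 6 lines, from 9.10 in line 380 to 9.52 in line 362, did not differ beyond their spread.

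LManII, the neighbour of LManI, was also lowest in lines 158 and 786. In line 158 its signal ran from 1351 to 2496 with a median of 2405, and in line 786 from 2260 to 3297 with a median of 2784. Against the other 7 lines, line 158 differed by −0.90 (SE 0.13, adjusted p = 6.4e-06) and line 786 by −0.40 (adjusted p = 0.029). At the upper end line 774 was higher by 0.47 (adjusted p = 0.011) with a median of 4574, in a line where 9.47% of probe sets passed as higher. The step between lines 158 and 786 was the only one beyond the larger SD.

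Line 362 had all 5 genes higher than the other 7 lines, where 9.08% of probe sets passed as higher in that line. LManVI was higher by 1.05 (SE 0.21, adjusted p = 0.00063), with a lowest signal of 2274, a median of 4458 and a highest of 6682. Its mean of 12.11 stood beyond the larger SD from the next line, 786, at 11.47. LManIII was higher by 1.67 (SE 0.46, adjusted p = 0.010) and LManV by 0.87 (SE 0.26, adjusted p = 0.017). LManI was higher by 0.62 (adjusted p = 0.016) and LManII by 0.45 (adjusted p = 0.011). In space-titled arrays alone, which are 1 tomato and 2 standard arrays of this line, the 5 differences were 2.64 for LManIII, 1.63 for LManVI, 1.59 for LManV, 1.11 for LManI and 0.88 for LManII, each with an adjusted p of 0.00085 or less.

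Several line calls were lost when 1 array was left out, in some cases without a smaller difference. Without ethanol array 1 of line 362, 4 of its 5 calls were lost, at 1.44 for LManIII, 0.78 for LManV, 0.52 for LManI and 0.37 for LManII. Without its standard array 2 the same 4 were lost, at 1.54, 0.80, 0.58 and 0.41 in that order. LManIII (1.49) and LManV (0.82) were lost without its tomato array 3, and LManII (0.39) without its tomato array 1. Without the 3 arrays that correlated best with another line, LManIII (1.46) and LManV (0.81) of line 362 were lost, and LManII in lines 379 (0.39) and 859 (0.32) was gained. LManVI kept its call without any 1 of the 48 arrays, as did LManI in lines 158 and 786 and LManII in line 158.

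Line 158 differed in LManIII by −1.60 (SE 0.46, adjusted p = 0.018), with a median of 134 and 1 array at 1585. That call was lost without its tomato array 2 (−0.88), ethanol array 1 (−1.49) or standard array 2 (−1.47). LManI was higher in line 379 by 0.61 (adjusted p = 0.017), where 9.47% of probe sets passed as higher, a call lost without its ethanol array 1 (0.61) or 2 (0.62), standard array 1 (0.56) or tomato array 3 (0.47). LManI was higher in line 774 by 0.55 (adjusted p = 0.036), a call lost without its ethanol array 2 (0.47), standard array 1 (0.60) or 2 (0.50) or tomato array 3 (0.55) or 4 (0.55). LManII in line 774 was lost without ethanol array 2 (0.39), and in line 786 without any 1 of its 6 arrays (−0.44 to −0.36). In all, 13 of 40 line differences passed, 8 higher and 5 lower, where 19.8% of those of all probe sets passed. Lines 304, 380 and 859 had no member called, beside 12.7%, 49.9% and 13.8% of probe sets, although LManVI in line 380 lay close to the limit (−0.50, adjusted p = 0.050496).

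Restricting the fit to space-titled arrays, which leaves lines 304, 380 and 774 with no tomato array, changed 7 of these 40 outcomes. Line 304 was then lower in LManIII (−1.19, adjusted p = 0.023), LManV (−1.03, adjusted p = 0.0046) and LManVI (−1.02, adjusted p = 0.0021), against −0.55, −0.46 and −0.56 over all arrays. Line 380 was lower in LManVI (−0.58, adjusted p = 0.026). Lost were LManI (0.43, adjusted p = 0.20) and LManII (0.33, adjusted p = 0.19) in line 774 and LManII in line 786 (−0.30, adjusted p = 0.15). Quantile normalization also lost LManII in line 786 (−0.37, adjusted p = 0.052), and LManII in line 362 (0.36, adjusted p = 0.051). Without the signal filter LManI in line 774 was lost (adjusted p = 0.0504). All 13 calls stayed with median centring, title style as a block or a block for array number. These added 2, 4 and 3 calls in that order, while calls over all probe sets went from 17858 to 18391, 25583 and 22466. Over all alternatives but the leaving out of 1 array, LManVI passed as lower in line 380 in 5 and in line 304 in 4.

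**Figure D4:**
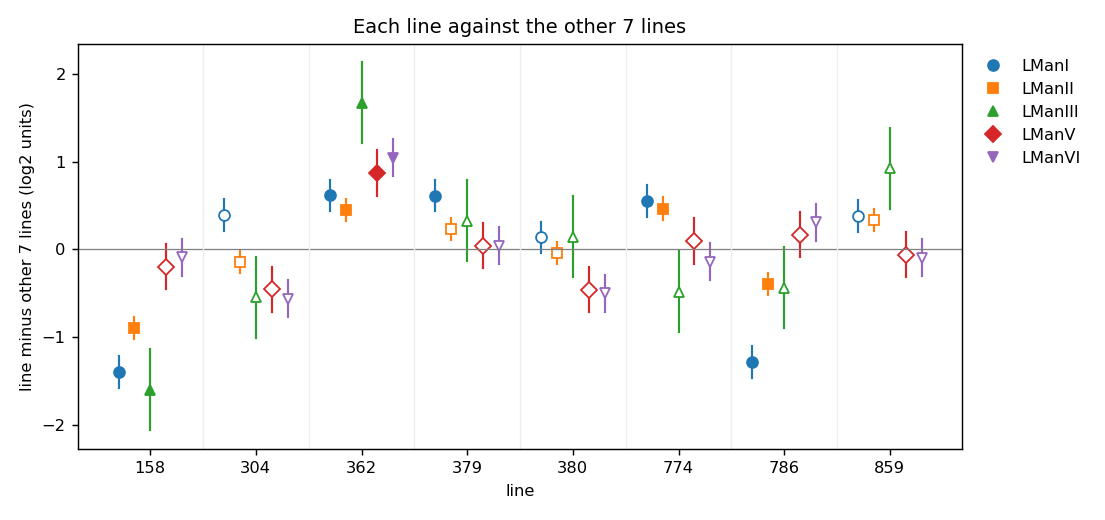
Mean of each line minus the mean of the other 7 lines (log2 units, bars ± 1 SE) for the 5 genes past the filter; filled symbols passed an adjusted p of 0.05 and open ones did not. Lines 158 and 786 lie lowest for LManI, at −1.40 and −1.29, and in line 362 all 5 genes are filled and above 0.

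The order of the lines split by group of genes only in part. LManIII, like LManI, was lowest in line 158 and highest in line 362. Its line means ran from a mean of 7.54 in line 158 to 10.41 in line 362, and none of its 7 steps exceeded the larger SD of the neighbours. LManIV, as a description, ran from 5.05 in line 158 to 6.43 in line 362, again with 0 of 7 steps beyond the SD. LManV was lowest in lines 380 and 304, at means of 10.85 and 10.86 log2 units, and highest in line 362 at 12.02. LManVI was lowest in line 304, at 10.71. Line 786, low for LManI, ranked next to the highest for both LManV and LManVI. Over the 8 line means, r was 0.779 for LManIII with LManII and 0.661 with LManI. With its own group it was 0.827 for LManIV, 0.601 for LManV and 0.557 for LManVI. LManI and LManII had r = 0.896. Among LManIII to LManVI, r ran from 0.549 for LManIV with LManVI to 0.972 for LManV with LManVI. Across the groups it ran from −0.00 for LManI with LManVI to 0.796 for LManII with LManIV.

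Correlations over the 24 combination means describe how far the genes moved together in means that share arrays, lines and media. LManV and LManVI had r = 0.957, LManIII and LManIV 0.833, and LManIII and LManV 0.799. LManI and LManII had r = 0.844. Across the groups r was 0.227 for LManI with LManVI and 0.653 for LManI with LManIII.

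The genes of most similar pattern over the 24 means, among 10093 probe sets with 1 gene symbol, included other members. LManVI headed the list of LManV (r = 0.957) and LManV that of LManVI, and both were followed by Ktch (0.805 and 0.847) and CG1941 (0.800 and 0.847). LManIII was closest to CG31104 (0.837), LManV (0.799) and Idh (0.782), which encodes isocitrate dehydrogenase. LManI was closest to CG6628 (0.937), CG31705 (0.881) and Sfp65A (0.876), with LManII in the sixth place. LManII was closest to Apoltp (0.879), a lipid transfer lipoprotein, LManI (0.844) and Iris (0.823). Of these 15 names, 10 were also among the first 3 when the 48 single arrays were used.

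The genes next to the 2 groups had smaller title-style differences than LManIII. Beside the group of LManIII to LManVI, CG42710 was higher on the hyphen-titled tomato arrays by 0.61 (SE 0.19, adjusted p = 0.034). SoxN, a Sox-family transcription factor gene, differed by 0.52 (adjusted p = 0.079) and CG12438 by 0.15 (adjusted p = 0.45), while CG45307 had no probe set. Beside LManI and LManII, RluA-1, annotated as a pseudouridine synthase, was higher by 0.72 (SE 0.19, adjusted p = 0.017). RluA-2 differed by −0.54 (adjusted p = 0.054) and loh by 0.42 (adjusted p = 0.24), and ppk10 was below the filter. The difference of LManIII, 2.57, was the largest of the members and these 6 neighbours, but only the members were chosen by values on tomato medium.

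Other genes of lysosomal breakdown and N-glycan processing were compared from a list of 47, of which 40 had a probe set and were tested. For the media, 0 passed for ethanol or tomato medium against standard medium and 0 for tomato against ethanol medium. On ethanol medium the smallest p-values belonged to cathD, the aspartic protease cathepsin D (−0.19), and Hexo2, a beta-hexosaminidase (−0.18). For tomato over ethanol medium they belonged to Npc2g, a sterol-binding protein of the Niemann-Pick type family (−0.28), and Cln3, a lysosomal membrane protein (0.26). Between lines 29 of 40 passed, beside 61.8% of all probe sets, with Lamp1, Npc2h, Npc2a and Cln7 at the largest F. The interaction called 0 of 40.

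Within the tomato pairs 28 of the 40 had a higher mean on the hyphen-titled arrays. The test was passed by 13 as higher and 6 as lower, with a median over the list of 0.22 against 0.05 for all probe sets. The largest difference among those that passed was that of tobi, an alpha-glucosidase-like target of brain insulin, at 1.84 (SE 0.21), below the 2.57 of LManIII and above the 1.36 of LManV. Mitf, a transcription factor gene for lysosomal genes, rose by 0.96, and Lip4, a lipase, by 0.90. Of those that passed as lower, alpha-Man-IIb, a Golgi alpha-mannosidase, had the largest difference and fell by 0.89 (SE 0.16, adjusted p = 0.0055). Npc2c, of the same family as Npc2g, lay farther down at −2.16 but did not pass (SE 0.84, adjusted p = 0.064). The 4 listed genes named alpha-Man, alpha-mannosidases of glycan synthesis, were then picked out after their values had been seen. All 4 fell, alpha-Man-Ib by 0.75 (adjusted p = 0.012), alpha-Man-IIa by 0.63 (0.0075) and alpha-Man-Ia by 0.59 (0.031) beside alpha-Man-IIb. Edem2, on the same list but not in this set, went the other way, at 0.46 (SE 0.19), and did not pass (adjusted p = 0.077). LManI, LManIII, LManV and LManVI thus rose on arrays where the 4 alpha-Man genes fell. In these pairs 17.9% of all probe sets passed as higher and 25.2% as lower.

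**Figure D5:**
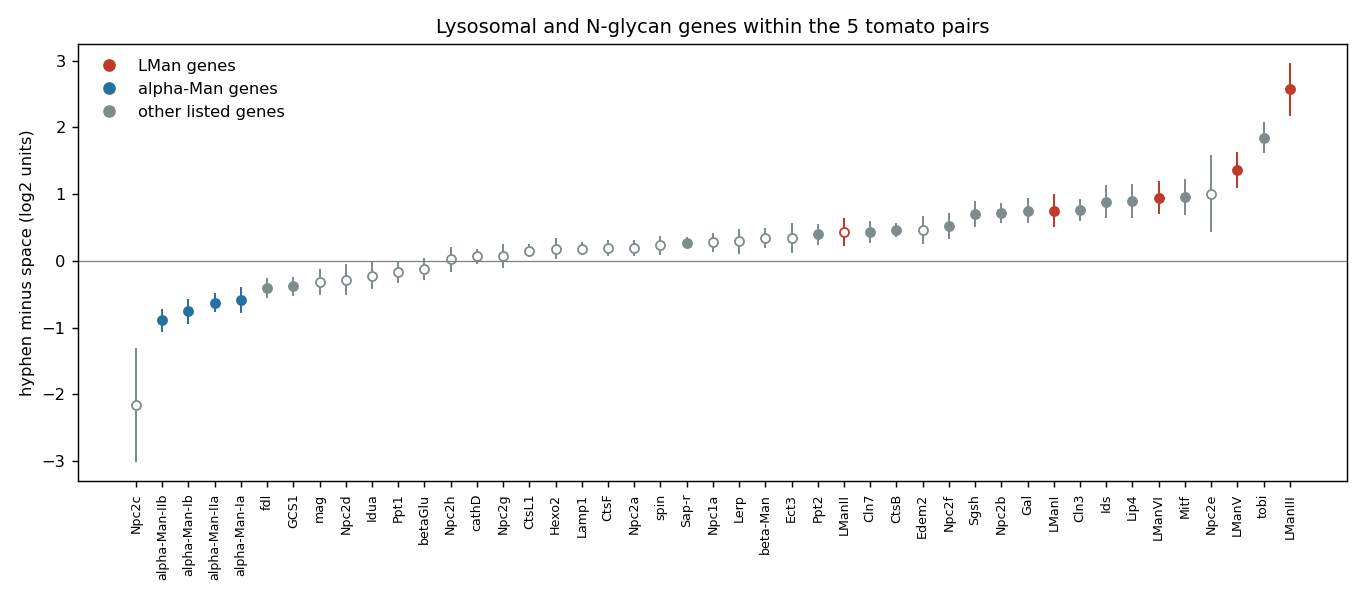
Hyphen-titled minus space-titled tomato arrays (log2 units, bars ± 1 SE, 5 pairs) for 40 listed lysosomal and N-glycan genes and the 5 LMan genes past the filter, sorted by size; filled symbols passed an adjusted p of 0.05. LManIII is highest at 2.57, and the 4 alpha-Man genes (blue) lie between −0.89 and −0.59.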

How the data were processed

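Each deposited file holds 1 linear signal intensity per probe set. MAS5 produced these intensities for the authors, as the submitters' processing notes state without a version. Tested on the values, each array's mean signal after trimming 2% at each end was 500.01 to 500.02, and its median 85.9 to 163. Arrays have no read depth; their number limits the precision. Of 18952 probe sets, 183 controls were left out; 13647 carry 1 gene symbol, 402 several and 4720 none, and 13544 were matched to the RefSeq table (Release 6 plus ISO1 MT), which gave names and gene order only. Signals were floored at 1 and taken as log2 without further normalization, and the upper 60% by mean (11261) were tested.

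limma 3.58.1 in R 4.3.3 with an intensity trend and Benjamini-Hochberg adjustment over all tested probe sets was used, with calls under 0.05. Media were compared on the 24 combination means with line as a term. Lines, each line against the other 7, and the interaction used all 48 arrays with a mean per combination. Title style was compared within 5 tomato pairs. The limma fits were tested on simulated data. The members, the gene lists and the rules for naming genes (all members, up to 4 called list genes by size or the 2 of smallest p, the 3 most correlated genes, the 2 nearest genes on either side) were chosen with earlier results of these data known. Alternatives were quantile normalization, median centring, other filters, a pseudocount of 16, no trend, single arrays, title style as a block, space-titled arrays, a replicate block, and leaving out arrays or lines. The title-style block, the space-titled arrays and the replicate block were also fitted on single arrays, for the media too. For ethanol against standard and tomato against ethanol medium, an exact sign-flip test over the 8 lines was also run. Leaving out the 3 arrays closest to another line was chosen after seeing the data. Array numbers did not pair the samples in all lines, and the main fits used no such pairing. No sequences were used here.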

Additional observations from a re-analysis of the deposited data

Results flagged for a closer look

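Of 66 groups of 6 arrays of a line or 8 line means on a medium, 7 had 1 value set apart from the others by Dixon's criterion; chance alone gives about 1 in 20, or 3.3. All values are log2 signals. LManIII on tomato array 3 of line 158 stood at 10.63, with the nearest other array of the line at 7.74. LManIII on tomato array 4 of line 774 stood at 11.01, against 8.62. LManI on tomato array 1 of line 379 was low, at 8.84 against 9.40. Standard array 1 of line 380 was low in both genes of the smaller group, at 7.95 against 9.23 for LManI and at 10.89 against 11.77 for LManII. Among line means, line 362 was high in LManVI on tomato medium, at 12.70 against 11.76, and in LManIV on standard medium, at 6.60 against 5.76. Both high LManIII arrays have a hyphen in their titles, as do 11 of 16 tomato arrays.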

How the results depend on the processing

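Counts of members called stayed at 0 for ethanol against standard and for tomato against ethanol medium under all limma alternatives. An exact sign-flip test over the 8 lines, not adjusted for the number of tests, gave LManIII p = 0.039 for tomato against ethanol medium. The other genes past the filter had 0.055 (LManV) to 0.96 (LManII). For ethanol against standard medium the same test gave 0.15 (LManIII) to 0.93 (LManII). The interaction called 2 members with title style as a block. Leaving out 1 array gave 4 to 5 genes for lines and 9 to 16 of 40 for single lines, and leaving out 1 line 3 to 5 for title style. The other alternatives gave 4 to 5 genes for lines and 11 to 17 of 40 for single lines. The median of the 5 genes for tomato over standard medium, 0.68, was −0.031 in space-titled arrays and 0.11 with a replicate block by array number, and 0.56 to 0.80 when 1 array or line was left out.

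Array numbers did not pair the samples in all lines: the correlation of same-numbered arrays' deviations was above 0.1 in 3 of 7 lines, from −0.56 in line 362 to 0.63 in line 304. In line 304, standard arrays 1 and 2 correlated best with ethanol arrays 1 (0.982) and 2 (0.983), above their own partners (0.95). On tomato medium the array number also follows the title style, so the replicate block takes up part of that difference. With the replicate block, tomato over ethanol differences were −0.11 for LManI, −0.24 for LManII, −0.22 for LManIII, −0.044 for LManV and −0.11 for LManVI, with 0 probe sets called; LManII for ethanol over standard was −0.018, LManVI in line 158 0.017, LManIII in line 380 −0.13 and LManV in line 774 −0.037.

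Other sign changes were all of differences that passed no test. Tomato over ethanol was −0.44 for LManI, LManII and LManVI, −0.66 for LManIII and −0.47 for LManV in space-titled arrays. For LManII it was −0.034 after quantile normalization, −0.081 with title style as a block and −0.067 to 0.079 when 1 array or line was left out. LManII on ethanol over standard was −0.028 after median centring, −0.040 with title style as a block, −0.038 without the 3 arrays, and −0.088 to 0.088 when 1 was left out. With title style as a block, line 158 was at 0.028 for LManV and 0.065 for LManVI. Line 380 was at 0.037 (quantile) and 0.11 (centring) for LManII and −0.0013 for LManI in space-titled arrays. LManV in line 774 was −0.029 after centring and −0.059 in space-titled arrays. Leaving out 1 array, line 158 ran from −0.59 to 0.19 for LManV and −0.40 to 0.21 for LManVI. Line 379 ran from −0.032 to 0.69 for LManIII, −0.16 to 0.25 for LManV and −0.086 to 0.17 for LManVI. Line 380 ran from −0.075 to 0.35 for LManI and −0.20 to 0.11 for LManII. Line 774 ran from −1.01 to 0.047 for LManIII, −0.073 to 0.26 for LManV and −0.31 to 0.032 for LManVI. Line 786 ran from −0.0010 to 0.34 for LManV, and line 859 from −0.37 to 0.25 for LManV and −0.33 to 0.14 for LManVI. The cause of these changes was not tested.

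Calls over all probe sets moved from 0 for ethanol over standard to 8 with the replicate block, 9 in single arrays, 13 with the title block and 40 in space-titled arrays. From 12 for tomato over ethanol they moved to 2, 21 and 69 with the title block, in single arrays and without the 3 arrays, and to 0 to 376 with 1 array or line left out. From 0 for the interaction they moved to 4 (centring, no trend, without the 3 arrays), 11 (quantile), 1834 (title block) and 0 to 28. From 4856 for title style they moved to 2391 without the 3 arrays and 3038 to 4811 without 1 line.

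Title style is confounded with tomato medium in part, no standard array has a hyphen, and LManIV lies near background.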

Other observations

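LManI resembled the adjacent group of LManIII, LManV and LManVI more within lines than between lines, and LManII did so less evenly. Over the 8 line means, LManI and LManVI had r = −0.00. After each line's mean was taken from its 3 media, r over the 24 values was 0.912 for the same pair, 0.880 for LManI with LManIII and 0.877 for LManI with LManV. Over line means the last 2 pairs had 0.661 and 0.163. LManII with LManIII went the other way, with 0.374 within lines and 0.779 over line means, and LManII with LManIV had 0.295 and 0.796. These are descriptions over means that share lines, media and title styles.

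For LManI, LManII, LManIII, LManV and LManVI the 2 arrays of a combination differed most on tomato medium, where 5 of 8 pairs mix the title styles. For LManIII the median absolute difference between partners was 2.19 log2 units on tomato, 0.38 on ethanol and 0.76 on standard medium. For LManV it was 1.01, 0.30 and 0.38 in the same order, and for LManVI 0.75, 0.37 and 0.29. LManI had 0.41, 0.18 and 0.24, and LManII 0.34, 0.11 and 0.094. LManIV differed most on ethanol medium, with 0.41, 0.85 and 0.28.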
